A study of Mus musculus with 2 samples.

Results

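Replication-dependent histone genes were examined in embryonic mouse forebrain, taken on day 13.5 of development. Members were the protein-coding genes whose GENCODE M21 symbol begins with Hist1h, Hist2h, Hist3h or Hist4, and the rule found 64 members among 21473 protein-coding genes matched in the tables. By histone type, 6 members encode the linker histone H1, 18 encode H2A, 15 encode H2B, 12 encode H3 and 13 encode H4. A further 3 rows with these prefixes are pseudogenes (Hist1h2aj, Hist1h2al and Hist3h2bb-ps) and were left out. The M21 genes Hist2h2bb, Hist1h2bm and Hist1h2bh were not matched and are not analysed here.

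The samples form 1 group of 2 libraries of total RNA, each from healthy forebrain of the B6NCrl strain, with male and female embryos pooled and no genetic change or treatment named. RNA longer than 200 nucleotides was isolated with a mirVana kit, 10 ng went into each library, and spike-in RNA was added. Labels call the libraries biological replicates, from tissue samples with codes of their own that share a donor code. No source used here states how cDNA was primed, beyond a linked manual for a SMARTer low-input kit, so the part of priming in any level below was not tested. With 1 group no comparison between conditions exists, no p-value is given, and errors are the SD of 2 libraries (n = 2).

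Nucleosomes hold the core histones H2A, H2B, H3 and H4, and H1 binds the linker DNA between them. Replication-dependent histone genes lie in clusters, mostly lack introns, and are transcribed mainly in S phase, when newly made DNA is packed. Their mRNAs end after a conserved stem-loop instead of a poly(A) tail: the stem-loop binding protein SLBP and the U7 small nuclear ribonucleoprotein direct the cut. Replication-independent variants come from separate genes whose mRNAs are mostly polyadenylated, and some, such as H3.3, are made throughout the cell cycle. In the embryonic forebrain the dividing progenitors of the ventricular and subventricular zones are among the cells that pass through S phase.

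The stem-loop was searched in the annotated M21 transcripts, as 6 base pairs around a loop of 4 bases that starts with 3 T, within 100 bases after the stop codon. It was found in 42 of the 50 members with at least 16 annotated bases after the stop codon, against 0.45% of 20685 protein-coding genes (93 genes, members included). It lay 22 to 59 bases after the stop codon. The sequences below show the form in the highest H1, H2A, H2B and H4 members, the highest H3 member in which it was found, and the members that carry other forms. Capitals mark the stem and loop, and each is read 5′ to 3′ on the transcribed strand (GRCm38, the assembly of mm10).
Hist1h1e, chr13:23621777-23621802, minus strand: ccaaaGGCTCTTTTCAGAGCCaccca
Hist1h2ap, chr13:21833026-21833049, minus strand: aaaaaGGCTCTTTTCAGAGCCatc
Hist3h2ba, chr11:58949344-58949369, plus strand: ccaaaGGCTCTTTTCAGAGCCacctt
Hist1h3d, chr13:23576239-23576264, plus strand: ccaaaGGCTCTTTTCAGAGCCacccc
Hist1h4d, chr13:23581945-23581970, plus strand: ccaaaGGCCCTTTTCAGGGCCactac
Hist1h3c, chr13:23745042-23745067, minus strand: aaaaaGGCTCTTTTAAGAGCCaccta
Hist2h2ac, chr3:96220413-96220438, minus strand: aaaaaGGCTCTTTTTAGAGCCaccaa
Hist1h4i, chr13:22040961-22040986, minus strand: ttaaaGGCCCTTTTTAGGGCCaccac
Hist1h4j, chr13:21735432-21735457, plus strand: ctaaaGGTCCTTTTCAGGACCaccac

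The form of Hist1h1e was shared by 24 members of the H1, H2A, H2B and H3 types. The form of Hist1h3c was found in 6 members (Hist1h1t, Hist1h2bb, Hist1h2bk, Hist1h3c, Hist1h3e and Hist1h3f), and that of Hist2h2ac in Hist2h2ac alone. All 11 H4 members in which the motif was found had a stem that none of the other types carried: 7 shared the form of Hist1h4d, Hist1h4i and Hist2h4 shared another, and Hist1h4b and Hist1h4j had the form shown for Hist1h4j. In 14 members the annotated transcript ends within 15 bases of the stop codon and could not be searched, Hist1h3i among them. In 8 searchable members no match was found: Hist1h1a, Hist1h2bc, Hist1h2bq, Hist1h2br, Hist1h3g, Hist1h4a, Hist2h2be and Hist2h3b. The missing match says only that these letters are not in this window of the annotated transcript.

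Annotated transcripts ended 3 to 74 bases after the stem-loop in 21 of the 42 members, and 151 to 4884 bases after it in the other 21. The short class includes Hist1h2ap, and its summed level was 4046 TPM in replicate 1 and 4668 TPM in replicate 2. TPM is the authors' length-normalised level, as a part of all transcripts measured. The long class summed to 1267 and 1333 TPM, and its highest members were Hist1h4d and Hist3h2ba. Medians of the classes were 11.8 TPM (short) and 12.4 TPM (long). Lengths here are those of M21, whereas the deposited values rest on GENCODE M4, and only 44 of the 64 members had the same length in both.

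Depth was 35378462 estimated counts in replicate 1 and 36793284 in replicate 2. The members held 55261 and 67361 of these counts (0.156% and 0.183%), and 5767 and 6512 TPM in sum. Of the 64 members, 54 had at least 1 TPM in both libraries (84.4%), against 59.0% of all protein-coding genes. At least 100 TPM in both libraries was reached by 6 members (9.38%, against 7.42% of protein-coding genes). The median member stood at 8.39 TPM, against 3.92 TPM over protein-coding genes. Levels ran from 4 members listed at 0, through 5 above 0 and under 1 TPM, 24 from 1 to 10 TPM and 25 from 10 to 100 TPM, to the 6 above. Markers of cell types were read beside the members. The neuronal tubulin Tubb3 stood at 1116 ± 63.4 TPM and the progenitor intermediate filament gene Vim at 759 ± 18.5 TPM. Alpha-globin Hba-a2 of red blood cells stood at 4899 ± 55.6 TPM. No list of markers for a brain region was used, so the forebrain label was not tested. In bulk tissue, fewer cells of a type and less RNA per cell cannot be told apart.

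**Figure D1:**
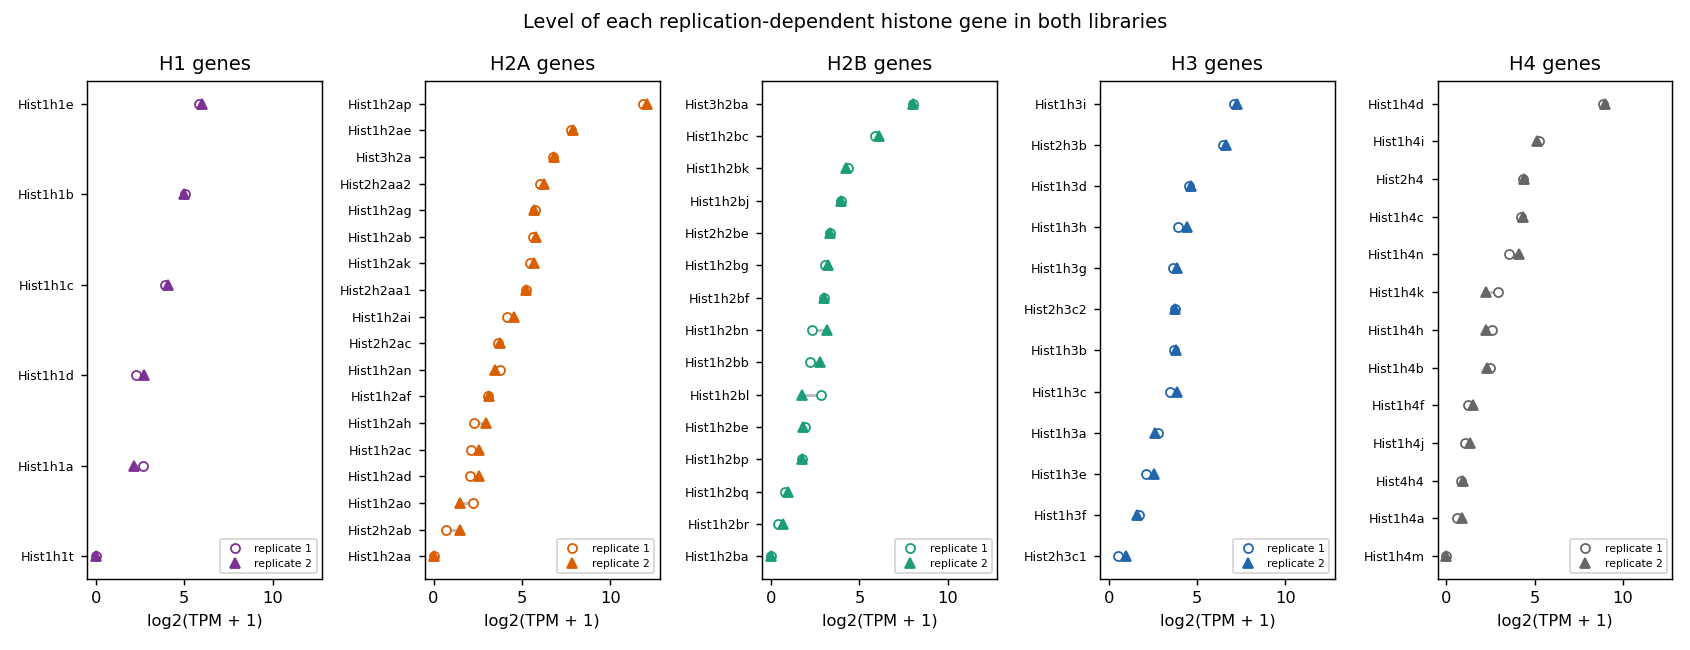
Level of each of the 64 members as log2(TPM + 1), by histone type, with open circles for replicate 1 and triangles for replicate 2. Within each type 1 member stands highest, from Hist1h1e at 59.6 TPM to Hist1h2ap at 4028 TPM, and the libraries lie close together for the higher members.

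The sum over histone H2A genes was 4365 TPM (replicate 1) and 5020 TPM (replicate 2), a mean of 4692 TPM and 76.4% of the summed level of all types. H4 followed with 576 and 603 TPM, H2B with 399 and 409 TPM, H3 with 316 and 361 TPM, and H1 with 111 and 119 TPM. Their mean shares were 9.63% for H4, 6.60% for H2B, 5.51% for H3 and 1.88% for H1. The H3 and H2B sums, neighbours in this order, were 338 ± 32.1 and 404 ± 6.75 TPM and did not overlap between the libraries. A single gene, Hist1h2ap, carried most of the H2A sum. Without Hist1h2ap and its near-identical copy Hist1h2ao, H2A summed to 631 and 692 TPM and all types to 2034 and 2184 TPM, of which H2A was 31.4%, H4 28.0%, H2B 19.2%, H3 16.03% and H1 5.46%. The ratio of H2A to H4 was 7.95 ± 0.536 with both genes and 1.12 ± 0.0381 without them.

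**Figure D2:**
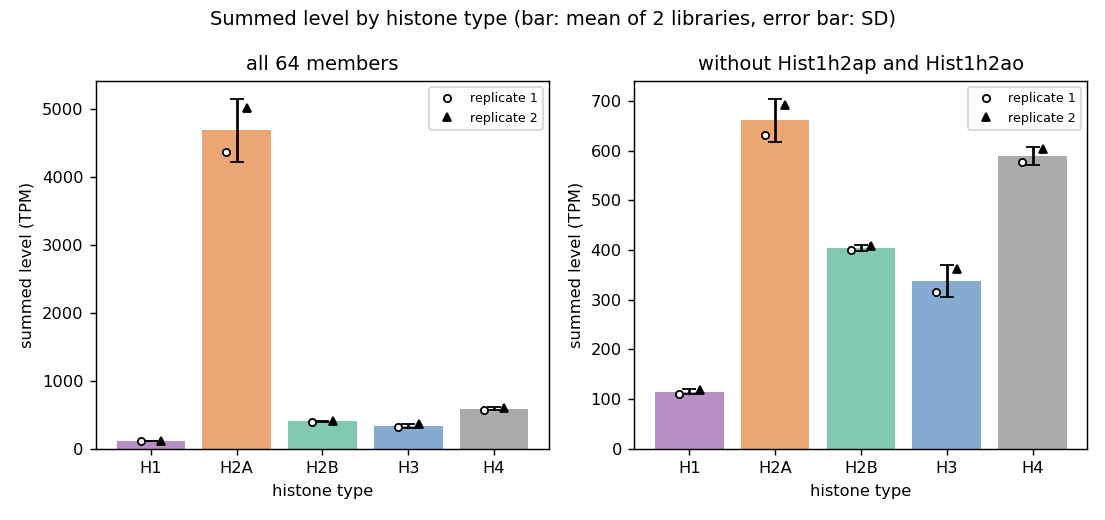
Summed level in TPM of each histone type (bars, mean of 2 libraries with the SD; circles and triangles, replicates 1 and 2), with all members on the left and without Hist1h2ap and Hist1h2ao on the right. H2A stands at 4692 TPM on the left and 662 TPM on the right, and the other types are the same in both.

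Hist1h2ap (chromosome 13, 21833026 to 21833507, minus strand) encodes the most common H2A protein of the clusters. It was listed at 3730 TPM in replicate 1 and 4326 TPM in replicate 2, rank 10 among protein-coding genes. Its estimated counts were 31756 and 40161, of which the authors' estimation gave a posterior SD of 68.9 and 75.9 counts. Hist1h2ao (chromosome 13, 21810465 to 21810944, plus strand) encodes the same protein and was listed at 3.80 and 1.88 TPM, or 32.2 and 17.3 counts. Both annotated transcripts are identical over all 452 bases at which they align. Of the 383 windows of 100 bases in the Hist1h2ap transcript, 30 occur in no other gene, and these are the windows that start at its bases 1 to 30. Hist1h2ao has 28 such windows of 381, which start at its bases 354 to 381, and its transcript runs 31 bases past the stem-loop against 3 in Hist1h2ap. Reads from the other windows could come from either copy, so the split between the copies rests on annotated 5′ and 3′ ends that differ. Their sum, 3734 and 4328 TPM, hardly depends on that split, since their lengths are 482 and 480 bases. Of the same windows, 263 are also found in Hist1h2ag, 173 in Hist1h2ac and 169 in Hist1h2ad.

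The 5′ ends of both copies lie in a duplicated stretch. The 120 bases just before the annotated start of Hist1h2ap are shown because the same 120 bases lie before Hist1h2ao, with a CCAAT motif in capitals (RefSeq promoter sequences, GRCm38.p6).
Hist1h2ap, chr13:21833508-21833627, minus strand, and Hist1h2ao, chr13:21810315-21810434, plus strand: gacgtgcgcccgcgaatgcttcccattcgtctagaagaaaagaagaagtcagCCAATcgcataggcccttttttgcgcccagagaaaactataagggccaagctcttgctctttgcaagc
The first 15 bases of Hist1h2ap that could be compared also match the bases that follow this stretch at Hist1h2ao. The promoters of the H2B genes on the other side, Hist1h2br and Hist1h2bq, are identical over all 300 bases from 250 before to 50 after the start. Those H2B genes were listed at 0.29 and 0.61 TPM (Hist1h2br) and at 0.70 and 0.93 TPM (Hist1h2bq), with no unique window in Hist1h2bq and 2 of 1157 in Hist1h2br.

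Other H2A members were far lower than Hist1h2ap. Hist1h2ae stood at 219 and 242 TPM, Hist3h2a, the H2A gene of the small cluster on chromosome 11, at 108 and 110 TPM, and Hist2h2aa2 at 63.5 and 76.8 TPM. Members are ordered by TPM here, and the order by counts can differ where lengths differ. Hist3h2a (2146 bases) had 4895 and 5466 estimated counts, more than Hist1h2ae (460 bases) with 1760 and 2116. Hist2h2aa2 has no unique window and shares its protein with Hist2h2aa1 (37.2 and 36.9 TPM), so the pair is better read as a sum, 107 ± 9.19 TPM. Hist1h2aa, known as a testis gene, was lowest at 0 in both libraries, which allows up to 0.464 and 0.425 TPM. The remaining 10 H2A members had means from 1.24 TPM (Hist2h2ab) to 51.9 TPM (Hist1h2ag), 5 of them at 10 TPM or more. By protein, 9 of the 18 H2A genes encode 1 and the same sequence of 130 residues, with a summed level of 4404 ± 443 TPM, and the 18 genes encode 9 proteins in all. Hist2h2ac, whose protein is 129 residues long, stood at 11.5 and 12.5 TPM.

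In the H2B type Hist3h2ba, the neighbour of Hist3h2a on chromosome 11, led with 265 and 263 TPM, 65.3% of the H2B sum. Hist1h2bc followed with 57.9 and 66.8 TPM, Hist1h2bk with 19.2 and 17.5 TPM, and Hist1h2bj with 14.4 and 14.6 TPM. These neighbours in the order did not overlap between the libraries. The testis gene Hist1h2ba was listed at 0, which allows up to 0.474 and 0.434 TPM. Apart from these and the pair Hist1h2bq and Hist1h2br above, 8 H2B members had means from 2.37 TPM (Hist1h2bp) to 8.98 TPM (Hist2h2be). The 15 H2B genes encode 9 proteins, and Hist3h2ba alone encodes the protein with the highest level.

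Hist1h3i led the H3 genes with 134 and 151 TPM, followed by Hist2h3b with 87.8 and 100.1 TPM. Hist1h3d stood at 22.3 and 24.5 TPM and Hist1h3h at 14.2 and 20.2 TPM. Hist2h3c1 was lowest, at 0.42 and 0.94 TPM, but none of its windows is unique and its posterior SD reached 71.1% of its count. The other 7 H3 members had means from 2.17 TPM (Hist1h3f) to 12.6 TPM (Hist1h3g), 4 of them at 10 TPM or more. The 12 H3 genes encode 2 proteins that differ at 1 of 136 residues, S97C (counted from the initiator methionine, first the protein known as H3.2 and then the one known as H3.1). Summed levels were 178 ± 17.3 TPM for the 4 genes of the second protein (Hist1h3a, Hist1h3g, Hist1h3h and Hist1h3i) and 161 ± 14.8 TPM for the 8 genes of the first. Values were 165 and 190 TPM against 150 and 171 TPM, so the ranges of the proteins overlapped.

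All 13 H4 genes encode 1 protein of 103 residues, and Hist1h4d gave 82.1% of their level, with 472 and 496 TPM. Nearly all of that count was assigned without sharing: every window of Hist1h4d is unique and its posterior SD was at most 0.90 counts of 3532. Its deposited length is 393 bases, whereas its M21 transcript has 1138 bases, and the deposited level rests on the shorter one. Hist1h4i stood at 37.4 and 34.6 TPM, Hist2h4 at 18.9 and 19.9 TPM, and Hist1h4c at 17.4 and 19.5 TPM, and the last pair overlapped. By estimated counts Hist2h4 (1630 bases; 642 and 739) stood above Hist1h4i (727 bases; 522 and 526). Hist1h4m was listed at 0, and its neighbour Hist1h4n at 10.6 and 16.4 TPM. By counting error alone the 0 of Hist1h4m allows up to 0.445 and 0.408 TPM, but the authors' posterior mean for it was higher, at 0.78 and 0.68 TPM. Only 36 of the 303 windows of Hist1h4m are unique, so its 0 cannot be told apart from a split of shared reads. Means of the other 7 H4 members ran from 0.675 TPM (Hist1h4a) to 5.20 TPM (Hist1h4k).

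Among the H1 genes, Hist1h1e (H1.4) led with 55.5 and 63.6 TPM, 51.7% of the type. Hist1h1b (H1.5) stood at 32.3 and 30.4 TPM and Hist1h1c (H1.2) at 14.2 and 16.03 TPM. Hist1h1d (H1.3) at 3.77 and 5.57 TPM and Hist1h1a (H1.1) at 5.47 and 3.50 TPM overlapped. The testis-specific Hist1h1t was listed at 0, which allows up to 0.214 and 0.196 TPM. The protamine and transition protein genes Prm1, Prm2 and Tnp1, markers of male germ cells, were also at 0, while the germ cell helicase gene Ddx4 stood at 0.73 and 0.63 TPM. H1 genes differ more in sequence than core histone genes, and the posterior SD reached at most 4.74% of the count.

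Read sharing differed widely over the members. Of the 60 members with counts, 28 had a posterior SD above 10% of their count in at least 1 library, 5 above 50%, and 10 at or below 1% in both. The median member had 62.2% unique windows, 7 members had only unique windows and 3 had none (Hist1h2bq, Hist2h2aa2 and Hist2h3c1). For H2A the count above 10% was 10 of 17, for H2B 7 of 14, for H3 5 of 12, for H4 6 of 12 and for H1 0 of 5. Neither these counts nor the unique windows were computed over all protein-coding genes, so they describe the members only. Levels of single members with few unique windows are therefore estimates of a split, while a read shared only within a type leaves the summed count of that type as it is. The summed TPM of a type can still depend on the split, since lengths differ within a type (H3: Hist1h3h 411 bases, Hist2h3c1 1820 bases).

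**Figure D3:**
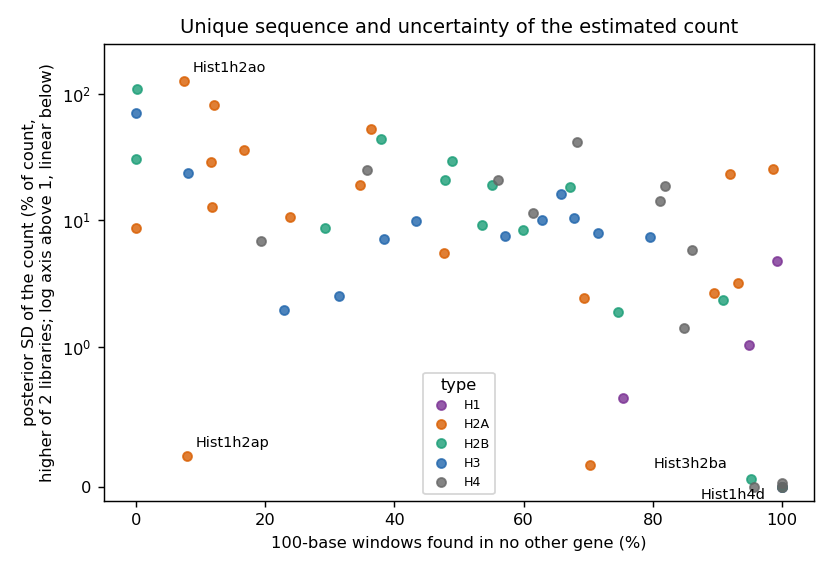
Posterior SD of the estimated count, in percent of the count (vertical axis, higher of both libraries), against the share of a member's 100-base windows found in no other gene (horizontal axis), 1 point a member, coloured by type. Hist1h2ao has 7.35% unique windows and an SD of 128% of its count, while Hist1h2ap has 7.83% unique windows and an SD of 0.217%.

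By position, the 22 members of the lower block of the Hist1 cluster (chromosome 13, 21715763 to 22043676) summed to 4146 and 4773 TPM, and the 30 members of the upper block (23531050 to 23934851) to 1006 and 1095 TPM. Without Hist1h2ap and Hist1h2ao the lower block held 413 and 445 TPM, below the upper block in both libraries. The 2 genes on chromosome 11 gave 373 and 373 TPM, more than the 9 genes of the Hist2 cluster on chromosome 3 (241 and 270 TPM). Hist4h4 on chromosome 6 stood at 0.81 and 0.96 TPM. Each block thus held members at 100 TPM or more except Hist4h4 and the Hist2 cluster, where Hist2h3b reached 100 TPM in replicate 2 only.

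In 12 pairs an H2A and an H2B gene are transcribed away from each other, with 175 to 305 bases between their starts. By TPM, H2A was higher in both libraries in 8 pairs, H2B in 3, and the testis pair Hist1h2aa and Hist1h2ba was at 0. Some of these orders rest on splits of shared reads. The posterior SD was above 50% of the count in both libraries for Hist1h2ad, Hist1h2ah, Hist1h2ao and Hist1h2br, and Hist1h2bq has no unique window. Hist1h2ae was 29.6 times as high as Hist1h2bg, from 231 ± 15.9 against 7.80 ± 0.933 TPM. Hist1h2bc went the other way, at 62.3 ± 6.28 TPM against 4.18 ± 1.10 TPM for Hist1h2ac. Hist2h2ac and Hist2h2be were closest by ratio, at 11.98 ± 0.693 and 8.98 ± 0.0283 TPM. TPM divides by annotated length, and by estimated counts this order turned. Counts were 108 and 127 for Hist2h2ac (520 bases) against 502 and 550 for Hist2h2be (2620 bases). Hist1h2ao (480 bases) had 32.2 and 17.3 counts against 30.8 and 45.8 for Hist1h2bq (2090 bases), so H2B was higher by counts in replicate 2. Sharing a start region thus went with levels from near equal to far apart.

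**Figure D4:**
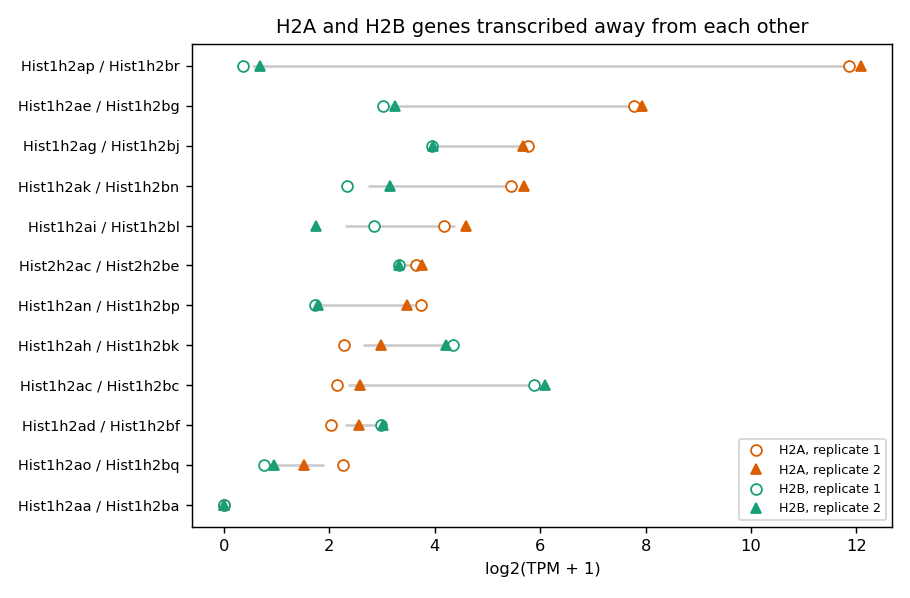
H2A (orange) and H2B (green) level of each of the 12 divergent pairs as log2(TPM + 1), with open circles for replicate 1 and triangles for replicate 2, and grey lines joining the means. H2A is higher in 8 pairs, H2B in 3, and 1 pair is at 0.

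RefSeq promoters (300 bases) matched 58 members. The letters TATAAA, on either strand, were in 35 of them (60.3%), against 13.3% of 17492 promoters. CCAAT, on either strand, was in 49 (84.5%), against 39.0%. Windows of divergent H2A and H2B genes can overlap, so the same motif can count for both. The TATAAA of Hist1h2bf, for example, is that of Hist1h2ad. The highest members of the H1, H3 and H4 types (Hist1h1e, Hist1h3i and Hist1h4d) and Hist3h2ba of the H2B type held both motifs. Hist1h2ap, the highest of all members, held CCAAT and no exact TATAAA, but the stretch shown above for it holds the similar TATAAG. Only exact letters were counted, at any position of the 300 bases. A motif match is a description of these letters and does not show binding.

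Only 4 members have more than 1 transcript in the deposited tables, and 60 have 1. Of the 4, Hist1h2be and Hist1h2bp had a mean of at least 1 TPM. Hist1h2be, at 2.81 and 2.46 TPM, was assigned for 76.2% ± 5.94 to its shortest transcript of 2099 bases and listed at 0 for its longest of 2433 bases. That 0 carried a posterior SD of 8.57 and 9 counts. For Hist1h2bp, at 2.31 and 2.42 TPM, the shorter transcript of 469 bases held 80.8% ± 0.986 and the longer of 621 bases 19.2% ± 0.986. These shares rest on few counts. The shorter had 15.2 and 17.7 counts with a posterior SD of 6.44 and 6.55. The longer had 5.34 and 5.68 counts with a posterior SD of 3.28 and 3.51. The SD of the shares leaves this uncertainty out.

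Replication-independent variants stood above the members in the H1 and H3 types by TPM, and in the H2A type by estimated counts but not by TPM over all members. The H3.3 genes H3f3a and H3f3b stood at 3325 and 3546 TPM and at 2232 and 2225 TPM. Together with Cenpa, the H3 variant of centromeres (194 ± 0.721 TPM), they made up 94.5% ± 0.355 of the level of all H3 genes counted here. For H1 the share was 79.3% ± 0.511, nearly all of it from H1f0 at 412 and 419 TPM. The H1 variants H1foo and H1fnt were listed at 0 and Hils1 at 0 and 0.05 TPM. Among H2A variants H2afz led with 2071 and 2279 TPM, followed by H2afv with 785 and 864 TPM and the macroH2A gene H2afy with 458 and 450 TPM. The share of H2A variants was 46.8% ± 1.30 by TPM, 69.5% by estimated counts, and 86.2% ± 0.225 by TPM without Hist1h2ap and Hist1h2ao. The variant mRNAs mostly carry poly(A) tails and the members' mostly do not, and the part of that difference in these shares was not tested.

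**Figure D5:**
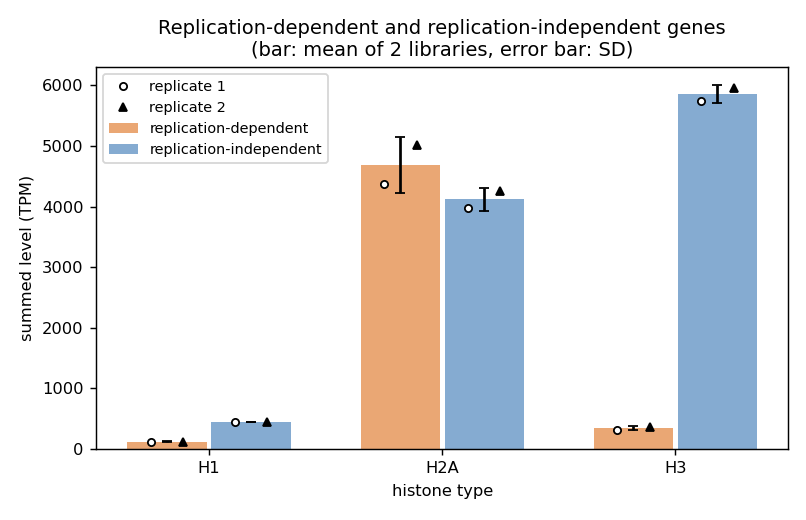
Summed level in TPM of replication-dependent (orange) and replication-independent (blue) genes of the H1, H2A and H3 types, with bars for the mean of 2 libraries, error bars for the SD, circles for replicate 1 and triangles for replicate 2. H3 stands at 338 against 5858 TPM and H1 at 115 against 442 TPM.

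Genes that act on histone mRNA were measured beside the members. In the list for processing and decay, 15 of the 16 matched genes had at least 1 TPM in both libraries (59.0% of all protein-coding genes did), and the median was 37.3 ± 0.898 TPM. Slbp, which binds the stem-loop, was highest with 195 and 188 TPM. It was followed by Ncbp1, a subunit of the cap-binding complex, at 92.8 and 88.1 TPM, and Cpsf3, the nuclease that cuts the 3′ end, at 93.4 and 85.3 TPM. The U7 protein genes Lsm10 and Lsm11 stood at 46.6 ± 0.714 and 7.11 ± 0.205 TPM. Zfp473 was the lowest gene above 0, at 1.31 and 1.18 TPM. The U7 RNA gene Rnu7 is listed at 0, and at 62 bases it is shorter than the 99 bases by which the authors' effective lengths were reduced, so its level is unknown here.

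All 8 genes of the list for histone gene transcription passed 1 TPM, with a median of 20.4 ± 0.721 TPM (mean and SD of the medians of the libraries). Cdk2, the kinase of S phase entry, led with 58.8 and 54.5 TPM, followed by the cyclin E genes Ccne2 (34.97 and 33.59 TPM) and Ccne1 (26.8 and 21.2 TPM). Npat, the coactivator of histone genes that cyclin E-Cdk2 phosphorylates, stood at 14.1 and 11.2 TPM, and Cramp1l was lowest at 5.99 and 5.58 TPM. Histone chaperones and import factors had a median of 73.2 ± 2.60 TPM over 21 genes. Rbbp4 (444 and 459 TPM), Anp32e (268 and 276 TPM) and Nap1l4 (282 and 259 TPM) were highest and Ubn1 (11.6 and 11.4 TPM) was lowest. The 18 S phase genes had a median of 90.6 ± 7.91 TPM, with Rrm2, a ribonucleotide reductase subunit, at 354 and 332 TPM, Pcna, the sliding clamp, at 274 and 264 TPM, Mcm7, a helicase subunit, at 232 and 211 TPM, and Pola1 lowest at 13.8 and 12.3 TPM.

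Between the libraries, the members' sum was higher in replicate 2, with a log2 ratio of TPM of 0.18. By type the log2 ratio was 0.20 for H2A, 0.19 for H3, 0.10 for H1, 0.06 for H4 and 0.03 for H2B. Over protein-coding genes with a mean count of at least 100, the median log2 ratio of TPM + 1 was -0.10, and 0.01 when the counts were scaled by TMM, so a change of scaling moved all genes by about as much as the smaller of these ratios. Relative to that, 31 members passed the same count minimum, with a median of 0.14 (0.26 under TMM). Of the 31, 23 were higher in replicate 2, against 23.6% of all genes tested. Under TMM 29 of the 31 were higher in replicate 2, against 52.3% of genes, since 6 of the 8 members that were higher in replicate 1 by TPM turned. A log2 ratio of at least 0.32 was reached by 4 members (Hist1h4n, Hist1h3h, Hist1h2ai and Hist1h3c), against 1.35% of genes, and 0 members were as far on the lower side, against 7.76%. With a mean count of at least 10, these counts were 13 of 59 members (2.07% of genes) and 4 of 59 (9.23% of genes). In the S phase list 0 of 18 genes were higher in replicate 2, with a median log2 ratio of -0.18, and its part in the members' difference was not tested. With 1 library on each side there is no replicate check of these ratios.

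Among the 31 members with a mean count of at least 100, the largest log2 ratios towards replicate 2 were those of Hist1h4n at 0.58 (10.6 and 16.4 TPM), Hist1h3h at 0.48 (14.2 and 20.2 TPM) and Hist1h2ai at 0.40 (17.1 and 23.0 TPM). Their counts were low, from 78.1 to 164, and few windows of each were unique: 64 of 331, 25 of 312 and 34 of 294. Towards replicate 1, again among these 31, Hist1h2be stood at -0.14 (2.81 and 2.46 TPM), Hist1h2bk at -0.12 (19.2 and 17.5 TPM) and Hist1h4i at -0.11 (37.4 and 34.6 TPM). For Hist1h4i the value under TMM was 0.01. Hist1h2ap itself had a log2 ratio of 0.21 (0.34 under TMM).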

How the data were processed

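For the 2 libraries of 1 group, levels were read from gene and transcript tables made, per the file headers and the notes deposited with them, with GENCODE M4 on mm10. No source used here names the aligner, the quantifier, the read length or the strand setting. Expected counts, as deposited, are estimates per feature in which shared reads are divided. The deposited TPM is the authors' level per length, over all rows, and a second TPM column holds its posterior mean. The deposited FPKM and percent (share of a transcript in its gene) columns were not used for printed values. The posterior SD of a count is the authors' value, per the file headers.

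Symbols, classes and coordinates came from GENCODE M21, and sums by type, shares and log2 ratios of TPM + 1 were computed here with Python 3.11.15, pandas 2.3.3 and numpy 2.4.6. Counts, rounded to whole numbers, were scaled in R 4.3.3 by the size factors of DESeq2 1.42.0 and by the TMM method of edgeR 4.0.16, with no test. Unique windows are 100-base stretches of a member's M21 transcript found in no transcript of another gene on the same strand. A count of 0 allows 3 counts, converted to TPM, which covers counting error only. Fold calls were tried on simulated counts with counting error only, without read sharing or other variation between libraries. The stem-loop search was tried on stem-loops planted in made-up sequence without T, so false matches were not tested. The members and lists were chosen with earlier results of these data known. Named are all H1 genes, the 4 highest and the lowest of each core type, the 3 highest and the lowest of other lists, and the 3 members highest in each library by ratio. Others, such as Hist1h2ao, the members of divergent pairs, Npat, Lsm10 and Lsm11, were chosen after their values were seen. Zcchc6 and Zcchc11 of the processing list were not matched by symbol.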

Additional observations from a re-analysis of the deposited data

How the results depend on the processing

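For 30 results, 94 values were recomputed under other settings: 46 stayed within the SD of the libraries (for counts of members within 1.5 times, for ratios within the counting interval) and 48 moved. Reversal was scored only for log2 ratios between libraries whose counting interval left out 0, and 0 of those reversed. Changes in the order of types were not scored. A value from 1 of 2 libraries always lies within the SD of their mean, so the values from 1 library say nothing about stability.

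The summed TPM of all types was 6512 without replicate 1 and 5767 without replicate 2. In counts per 1000000 estimated counts the sums were 1696 (all types), 55.6 (H1), 1271 (H2A), 148 (H2B), 85.0 (H3) and 137 (H4), which is another unit and weights longer genes more. By posterior mean TPM H2B was 395.9. By shares of counts the types held 3.28% (H1), 74.9% (H2A), 8.73% (H2B), 5.01% (H3) and 8.09% (H4), so H2B stood above H4, and the replication-independent shares were 91.6% (H1), 69.5% (H2A) and 98.2% (H3). Without Hist1h2ap and Hist1h2ao, a setting chosen after seeing the data, the sums were 2109 (all types) and 661.6 TPM (H2A), the shares 5.46% (H1), 31.4% (H2A), 19.2% (H2B), 16.03% (H3) and 28.0% (H4), the replication-independent share of H2A 86.2%, and the log2 ratios between libraries 0.10 (all types) and 0.13 (H2A).

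The log2 ratios under TMM were 0.28 (all types), 0.24 (H1), 0.31 (H2A), 0.16 (H2B), 0.31 (H3) and 0.18 (H4), and under DESeq2 size factors 0.29, 0.24, 0.31, 0.16, 0.31 and 0.19. With DESeq2 size factors of 1 in both libraries and close TMM sizes, the closeness of these sets is no separate check. Members with a log2 ratio of at least 0.32 towards replicate 2 numbered 7 under TMM, 8 under DESeq2 size factors, and 13 with a count minimum of 10 or none, where 4 were as far on the lower side. The processing list stood at 25.6 TPM by the mean of log2(TPM + 1) and at 42.7 TPM over genes of at least 1 TPM; by the same mean the chaperones stood at 85.3 and the S phase genes at 79.7 TPM. The cause of these moves was not tested, and 2 libraries limit every SD. No paired analysis was possible because there is only 1 group.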
